A study of Mus musculus with 31 samples.

Results

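The data describe RNA from cortex of mice aged 2 years, prepared from cells that express the dopamine receptor gene Drd1a (4 arrays) and from cells that express Drd2 (4 arrays), and every difference below is Drd1a minus Drd2. These 8 arrays were chosen by their sample titles out of 31 in the series. The RNA was obtained by translating ribosome affinity purification (TRAP), in which tagged ribosomes of a marked cell type are pulled down with the RNA bound to them, and was measured on mouse exon arrays. Whole cortex was the starting tissue. For comparison, the series holds the same cell types from cortex at 6 weeks (4 and 4 arrays) and from striatum at 2 years (4 and 4 arrays). The labels give neither the mouse line, sex, tag and transgene nor whether a replicate is a separate mouse. If the cell types came from different lines, line and cell type cannot be told apart. The p-values refer to the variation among replicate preparations, which may be technical, with the spread of each gene pooled over all 31 arrays.

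Dopamine acts on neurons through receptors of the D1 class, which raise cyclic AMP, and the D2 class, which lower it. In striatum the D1 receptor (gene Drd1, labelled Drd1a) and the D2 receptor (Drd2) mark the projection neurons of the direct and indirect pathways, which carry different peptides: dynorphin and substance P in the former, enkephalin in the latter. In cortex both receptors are made by subsets of excitatory pyramidal neurons and of inhibitory interneurons, so cells selected by either gene there are a mixture. Cortical interneurons are commonly classed by the peptides and calcium-binding proteins they make, such as vasoactive intestinal peptide, somatostatin, cholecystokinin and parvalbumin.

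Values are log2 with each gene's median over the 31 arrays at 0, so no absolute level is known. A gene is here said to be called where it reached a difference of at least 1.2-fold with an adjusted p below 0.05 by limma (Benjamini-Hochberg, 16345 features). The ± after a difference is the standard error (SE) of the fit, with 4 arrays a group and the spread pooled over all 31 arrays. The ± after a group mean is the SD of its own 4 arrays. Precision is set by how many arrays there are, and the median SE of a difference was 0.099. Of the 8 arrays, Drd1a replicate 4 (array median 0.129) and Drd2 replicate 1 (0.087) stood apart from the other 6, whose medians ran from -0.063 to 0.009. The part of these shifts in single results was not tested; where leaving out both moved a count of calls in a gene group described below by over 1.5 times, the count without them is given beside it.

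The receptor genes followed the labels in all 8 arrays. Drd1 read 1.19, 0.74, 0.67 and 0.71 in Drd1a replicates 1 to 4 and -1.90, -0.76, -1.02 and -1.03 in Drd2 replicates 1 to 4, a difference of 2.01 ± 0.18 (4.02-fold, adjusted p = 1.49e-08). Drd2 read -3.92, -3.96, -3.84 and -3.62 in the Drd1a arrays and 0.00, 0.09, 0.33 and 0.40 in the Drd2 arrays, a difference of -4.04 ± 0.17 (16.4-fold, adjusted p = 4.26e-16). The groups were far apart for both genes. With quantile normalization the differences were 3.05 and -3.44, and both were called. Drd2 replicate 1 had the lowest Drd1 value of the 8 arrays. In such bulk preparations fewer cells of a type and less RNA per cell cannot be told apart.

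Ttc12, Ankk1 and Sfxn1, which lie next to the receptor genes in the RefSeq gene order, separated the groups as well. Ttc12, a tetratricopeptide repeat gene and the second measured gene after Drd2, showed the largest difference of the named genes: -4.77, -4.88, -5.08 and -4.58 in the Drd1a arrays against 0.05, 0.33, 0.40 and 0.51 in the Drd2 arrays (-5.15 ± 0.10, 35.5-fold, adjusted p = 1.27e-24; -4.30 with quantile normalization). Ankk1, a kinase gene between Drd2 and Ttc12, read -1.41, -1.54, -1.49 and -1.09 against 0.25, 0.36, 0.00 and 0.61 (-1.69 ± 0.11). Neither gene overlapped between the groups. Of the other measured neighbours of Drd2, Usp28, a deubiquitinase, was called at -0.34 ± 0.08, and Zw10 (-0.09 ± 0.08), Tmprss5 (0.02 ± 0.09), Ncam1 (0.09 ± 0.11), Plet1 (0.13 ± 0.10) and a predicted gene were not. Sfxn1, the gene listed directly after Drd1 and a mitochondrial serine transporter, read 1.46, 1.09, 1.21 and 1.31 in the Drd1a arrays and -0.35, -0.31, -0.43 and -0.28 in the Drd2 arrays (1.61 ± 0.16, 3.05-fold, adjusted p = 6.07e-08). The other 7 measured neighbours of Drd1 were not called, and their differences ran from 0.01 (Thoc3) to 0.27 (Hrh2).

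**Figure D1:**
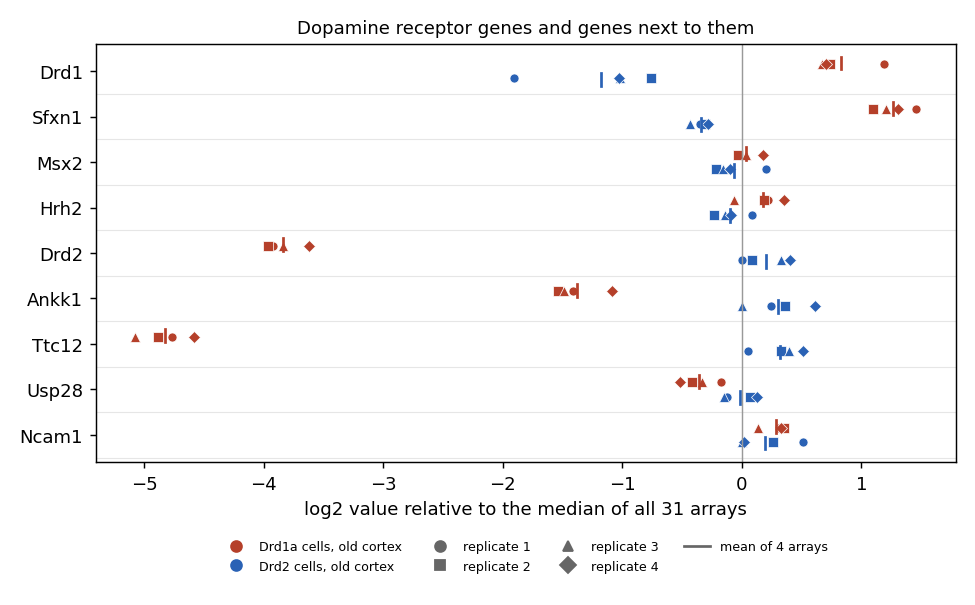
Log2 values of Drd1, Drd2 and genes next to them in the 4 Drd1a arrays (red) and the 4 Drd2 arrays (blue) of old cortex, relative to each gene's median over the 31 arrays. Symbols mark replicates and vertical ticks the mean of 4 arrays. Drd1 and Sfxn1 lie higher in every Drd1a array, Drd2, Ankk1 and Ttc12 lie lower, and Msx2, Hrh2 and Ncam1 overlap.

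Across the array 1059 of 16345 features were called (6.48%), 624 higher in Drd1a cells (3.82%) and 435 lower (2.66%). At least a 2-fold difference was reached by 48 of the higher and 24 of the lower features. The 4 Drd1a and 4 Drd2 arrays did not overlap in 1723 features (10.5%), and 854 of these were called (5.22% of all). The split between higher and lower depended on scaling: with arrays centred on their medians 452 were higher and 564 lower, and with quantile normalization 325 and 519. The median difference of all features was 0.058, by which the Drd1a arrays stood above the Drd2 arrays as deposited.

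Many neuropeptide precursors were higher in Drd1a cells. Of 30 measured, 13 were called higher and 1 lower (46.7%, against 6.48% of all features). The median difference was 0.34 against 0.058 over all features. Without both arrays that stood apart the counts were 11 and 1. Vip, the precursor of vasoactive intestinal peptide, which one class of cortical interneurons makes, had the largest difference on the Drd1a side of the named genes in the deposited values. It read 3.40, 3.74, 4.10 and 3.92 in the Drd1a arrays and 0.41, 0.32, 0.43 and 0.47 in the Drd2 arrays (3.38 ± 0.13, 10.4-fold, adjusted p = 1.67e-17). The lowest Drd1a array lay far above the highest Drd2 array, and the Drd2 arrays lay close together. With quantile normalization the Vip difference was 2.57, below that of Drd1.

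Tac2, the neurokinin B precursor, read 1.30, 2.12, 2.26 and 1.94 against 0.39, -0.21, -0.05 and 0.63 (1.72 ± 0.16, 3.28-fold, adjusted p = 2.66e-08). Npy, the neuropeptide Y precursor, read 1.46, 1.76, 2.05 and 1.85 against 0.27, 0.30, 0.10 and -0.03 (1.62 ± 0.18, adjusted p = 6.93e-07). Sst, the somatostatin precursor, read 1.19, 1.03, 1.53 and 1.40 against 0.20, 0.00, 0.33 and 0.16 (1.11 ± 0.27, adjusted p = 0.00992), and with quantile normalization its difference of 0.71 was not called. None of these genes overlapped between the groups. Of the precursors that mark direct-pathway neurons, Tac1, for substance P, read 0.67, 0.48, 0.52 and 0.71 against -0.93, -0.49, -0.49 and -0.08 (1.09 ± 0.17), and Pdyn, for dynorphin, read 1.00, 0.64, 1.04 and 1.27 against -0.05, -0.18, -0.05 and -0.11 (1.09 ± 0.16). Further called precursors were Cck (cholecystokinin, 0.89 ± 0.13), Crh (corticotropin-releasing hormone, 0.81 ± 0.16), and Nmb (neuromedin B, 0.72 ± 0.15). The granins Chga (0.68 ± 0.14) and Scg2 (0.64 ± 0.13), proteins of the dense-core vesicles that store peptides, were called as well. Pnoc, for nociceptin (0.51 ± 0.15), and Prok2, prokineticin 2 (0.44 ± 0.12), lost their calls without any one of 3 and 5 arrays (0.40 to 0.59 and 0.35 to 0.54). Pdyn, Cck, Crh, Nmb, Pnoc, Prok2, Chga and Scg2 were named after their values were seen. The single precursor on the Drd2 side was Penk, for enkephalin, the peptide of indirect-pathway neurons. Penk read -0.41, -0.31, -0.34 and -0.22 in the Drd1a arrays and 0.00, 0.07, 0.17 and 0.16 in the Drd2 arrays (-0.42 ± 0.09, 1.34-fold, adjusted p = 0.00199), without overlap.

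**Figure D2:**
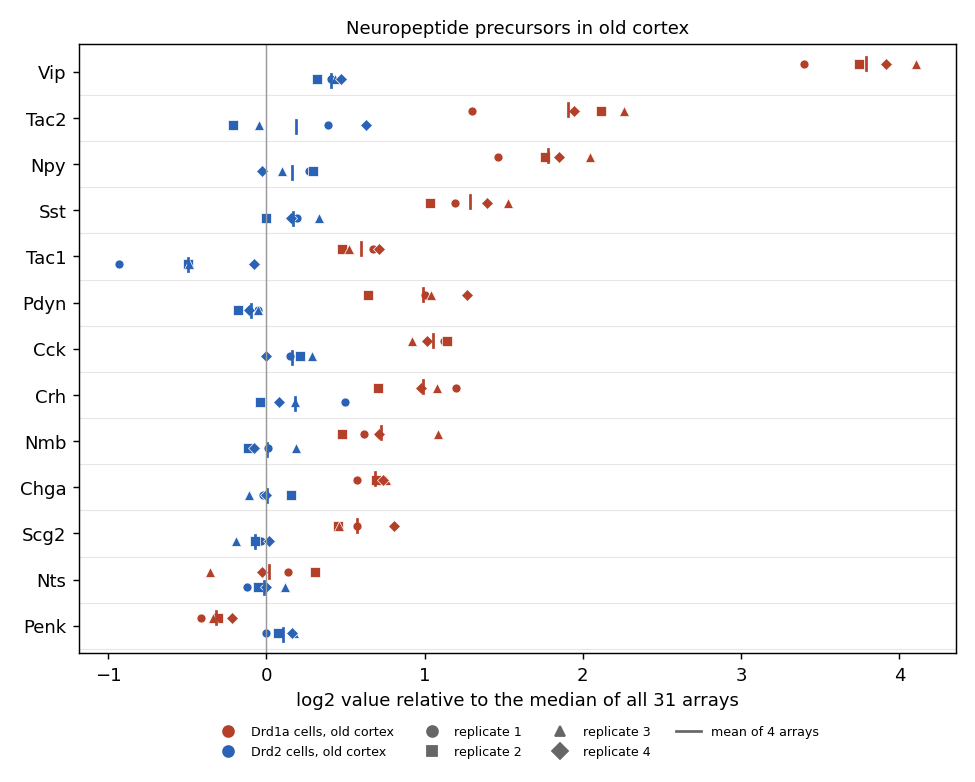
Log2 values of 13 neuropeptide precursors in the 8 old cortex arrays, relative to each gene's median over the 31 arrays (red, Drd1a cells; blue, Drd2 cells; symbols, replicates; ticks, means of 4 arrays). Vip separates the groups most, Penk lies lower in the Drd1a arrays, and Nts overlaps.

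Several of these genes share a promoter element that cyclic AMP-responsive factors bind, the cAMP response element, with the core TGACGT and the full palindrome TGACGTCA. The promoters of genes called higher are shown because no other list had more genes called higher. The window searched ran from 250 bases before to 50 after each gene's start in RefSeq (GRCm38.p6), on both strands, and the core lies inside the palindrome. The core was found in the promoters of 8 of the 26 precursors with a promoter in that table and of 8.37% of 27025 genes, and the palindrome in 5 of 26 and in 2.03% of genes. Among the 11 precursors called higher with a promoter listed, Vip, Sst, Scg2 and Chga held the core, and Sst and Scg2 the palindrome. Precursors not called higher held the core and the palindrome as well. A match is a description of letters and not of binding. The 100 bases before the start, 5′ to 3′ on the strand of the gene with the core or palindrome in capitals, are as follows for these genes, at chr10:5639118-5639217 (plus strand), chr16:23890845-23890944 (minus), chr1:79440027-79440126 (minus) and chr12:102554841-102554940 (plus), and for Npy, at chr6:49822610-49822709 (plus), where no core was found:
Vip: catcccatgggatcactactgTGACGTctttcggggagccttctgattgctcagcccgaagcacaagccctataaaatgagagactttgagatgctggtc
Sst: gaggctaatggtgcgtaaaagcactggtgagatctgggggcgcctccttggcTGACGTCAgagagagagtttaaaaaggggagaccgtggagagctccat
Scg2: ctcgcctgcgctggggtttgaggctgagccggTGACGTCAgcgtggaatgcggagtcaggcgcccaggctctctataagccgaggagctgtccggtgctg
Chga: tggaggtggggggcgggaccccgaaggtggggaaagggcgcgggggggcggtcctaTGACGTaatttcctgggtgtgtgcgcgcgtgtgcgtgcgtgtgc
Npy: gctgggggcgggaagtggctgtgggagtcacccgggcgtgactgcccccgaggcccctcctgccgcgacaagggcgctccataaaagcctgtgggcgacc

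Interneuron subclass markers were called more often on the Drd1a side than on the Drd2 side. Of 21 measured, 10 were called higher and 2 lower (57.1%, against 6.48% of all features, median 0.50). It was 10 and 2 as well without both arrays that stood apart. Besides the peptides they included Htr3a, the serotonin-gated channel of one interneuron class, which read 0.95, 0.83, 1.07 and 1.10 in the Drd1a arrays and 0.32, 0.15, -0.12 and -0.17 in the Drd2 arrays (0.94 ± 0.12, adjusted p = 1.09e-05). Named after their values were seen, Kit, a receptor tyrosine kinase, read 0.63, 1.47, 1.42 and 1.53 against 0.59, 0.38, 0.14 and 0.12 (0.95 ± 0.17), and Crhbp, the corticotropin-releasing hormone binding protein, 1.22, 1.46, 1.26 and 1.22 against 0.67, 0.56, 0.00 and 0.17 (0.94 ± 0.17). Both were called, with Drd1a replicate 1 low for Kit. Pvalb, parvalbumin, the marker of fast-spiking interneurons, was not called (0.50 ± 0.29, adjusted p = 0.371), although its arrays did not overlap. On the Drd2 side, Tacr1, the substance P receptor, was called (-0.50 ± 0.11); these genes too were named after their values were seen. Calb1, calbindin, was called at -0.34 ± 0.10, a call lost without any one of 6 of the 8 arrays (differences -0.43 to -0.26).

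Markers shared by all GABAergic neurons did not follow the peptides. The enzymes of GABA synthesis, Gad1 (-0.19 ± 0.09) and Gad2 (-0.10 ± 0.08), and the vesicular GABA transporter Slc32a1 (0.01 ± 0.10) were not called, and the array values of each overlapped between the groups; these 3 were named after their values were seen. Of 12 identity genes measured, 3 were called higher in Drd1a cells and 0 lower (25%, against 6.48% of all features). Adarb2, an RNA editing enzyme relative found in Vip-class interneurons, read 0.89, 1.23, 1.36 and 1.03 against 0.47, 0.13, -0.21 and 0.20 (0.98 ± 0.11, adjusted p = 5.61e-07). Dlx1, a homeobox factor of GABAergic neurons, read 0.61, 0.85, 0.70 and 0.80 against 0.15, -0.14, -0.13 and -0.11 (0.80 ± 0.16). Both separated the groups. Prox1, a homeobox factor of the same interneuron class, stood at 0.53 ± 0.17, and its call was lost without any one of 5 arrays (0.36 to 0.66).

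Markers of the striatal pathways split by cell type in cortex too. Of 9 direct-pathway markers, 8 were called higher in Drd1a cells (median 1.09), and 8 were called without any single array. Drd1 in this list and Drd2 in the next are the genes that select the cells. Eya1, a transcriptional coactivator with phosphatase activity, read 3.15, 2.72, 2.90 and 2.81 in the Drd1a arrays and -0.05, 0.00, -0.56 and -0.03 in the Drd2 arrays (3.05 ± 0.13, 8.31-fold, adjusted p = 6.48e-16; 2.36 with quantile normalization). Chrm4, the M4 muscarinic receptor, read 0.69, 0.69, 0.60 and 0.73 against -0.48, -0.63, 0.19 and -0.89 (1.13 ± 0.18). Isl1, a LIM homeobox factor, read 1.09, 0.60, 0.06 and 0.80 against -0.35, -0.66, 0.00 and -0.57 (1.03 ± 0.20), the groups lying close in replicate 3 of each. Slc35d3, a sugar nucleotide transporter relative named after its values were seen, was called at 0.75 ± 0.17. Ebf1, a transcription factor of direct-pathway neurons, was the member not called (0.34 ± 0.17, adjusted p = 0.273).

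Of 6 measured indirect-pathway markers, 4 were called lower in Drd1a cells and 0 higher (median -0.67), with 5 lower without both arrays that stood apart. Gpr6, a G protein-coupled receptor of indirect-pathway neurons, read -1.02, -0.81, -1.88 and -0.57 against 0.00, 0.26, 0.44 and 1.30 (-1.57 ± 0.24, adjusted p = 7.68e-05). Ptprm, a receptor tyrosine phosphatase, read -0.63, -0.79, -0.61 and -0.56 against 0.43, 0.08, 0.26 and 0.14 (-0.87 ± 0.11). Fig4, a phosphoinositide phosphatase gene with no protein-coding gene between it and Gpr6 in RefSeq, read -0.54, -0.72, -0.47 and -0.71 against 0.60, 0.52, 0.54 and 0.73 (-1.21 ± 0.11). These 3 genes separated the groups.

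Genes of striatal projection neurons in general stood higher in the Drd2 preparations. Of 14 measured, 10 were called lower in Drd1a cells and 1, Tac1, higher (78.6%, against 6.48% of all features, median -0.42). Left-out arrays gave 8 to 10 lower, and omitting both arrays that stood apart gave 11. Foxp1, a forkhead factor, read -0.79, -1.0, -0.96 and -0.93 in the Drd1a arrays and -0.22, -0.02, -0.08 and 0.11 in the Drd2 arrays (-0.87 ± 0.09, 1.83-fold, adjusted p = 9.87e-08). Meis2, a homeobox factor, read -0.51, -0.79, -0.85 and -0.69 against -0.14, -0.02, 0.06 and 0.14 (-0.72 ± 0.10). Rasgrp2, an activator of Ras-family GTPases, read -0.78, -0.98, -0.97 and -0.99 against -0.71, -0.34, -0.34 and -0.10 (-0.56 ± 0.12), with Drd2 replicate 1 nearest the Drd1a arrays. The arrays of each of these genes did not overlap.

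Dopamine and cyclic AMP signalling genes overlapped with that list in part. Of 31 measured, 11 were called lower in Drd1a cells and 3 higher (45.2%, against 6.48% of all features). With quantile normalization 0 were higher. Phosphodiesterases, which break down cyclic nucleotides, were called in both directions. Pde10a, abundant in striatal projection neurons, read -0.70, -1.16, -1.10 and -0.90 against -0.42, -0.18, -0.27 and -0.05 (-0.73 ± 0.11, adjusted p = 9.03e-05), and Pde1b was called at -0.50 ± 0.07. Pde1a, in contrast, read 1.42, 1.52, 1.46 and 1.25 against 0.91, 0.63, 0.51 and 0.26 (0.83 ± 0.20), with no call under quantile normalization (0.41). Ppp1r1b, which encodes the dopamine-regulated phosphatase inhibitor DARPP-32 and was named after its values were seen, was called at -0.37 ± 0.08 (1.29-fold). Adcy2, an adenylate cyclase, was called higher at 0.56 ± 0.12, and not under quantile normalization (0.24).

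**Figure D3:**
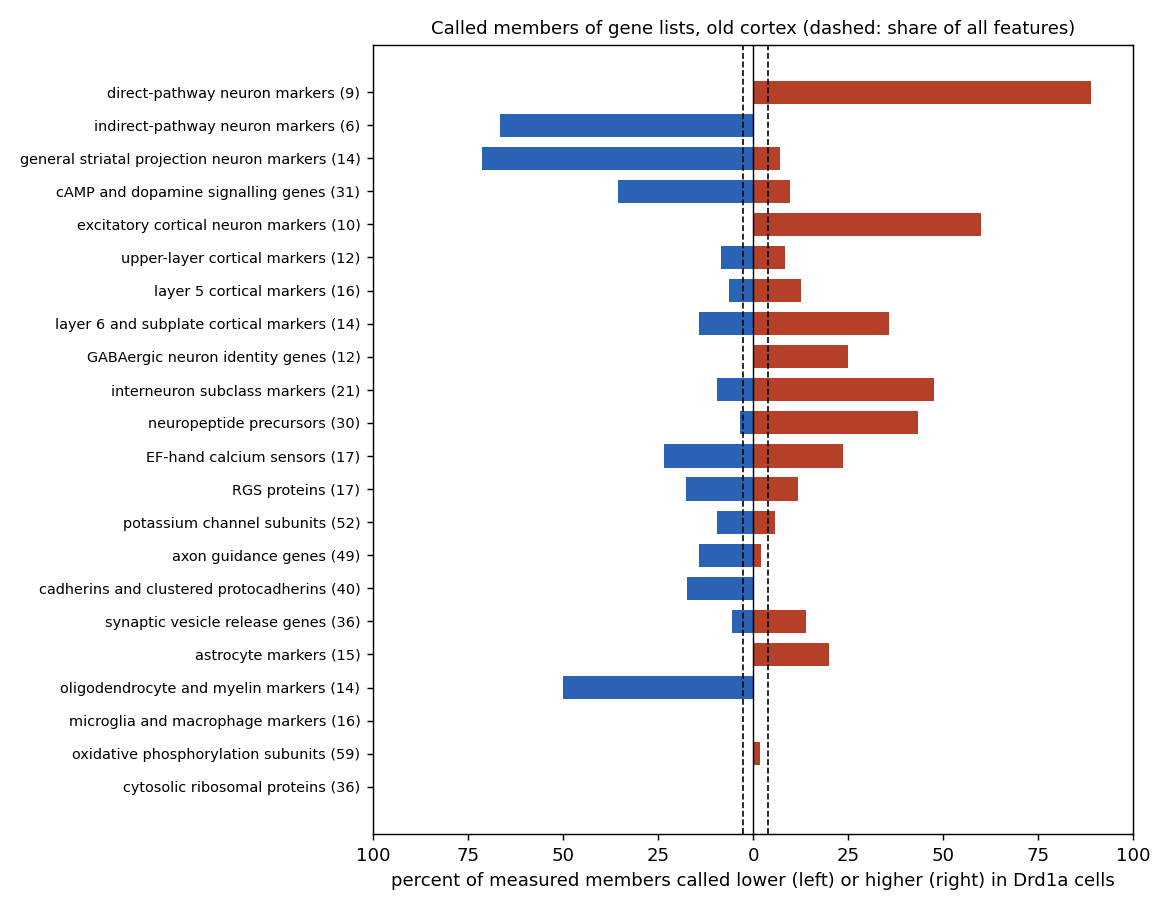
Share of the measured members of each gene list called higher (red, right) or lower (blue, left) in Drd1a than in Drd2 cells of old cortex, in percent, with the number measured in parentheses. Dashed lines mark 3.82% and 2.66%, the shares of all 16345 features called higher and lower. Direct-pathway, excitatory, interneuron and neuropeptide lists reach furthest right, and indirect-pathway, striatal and myelin lists furthest left.

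Of 11 dopamine, muscarinic and adenosine receptors measured, 2 were called higher (Drd1 and Chrm4) and 1 lower (Drd2). The share called was 27.3%, against 6.48% of all features. Drd1 and Drd2 are the genes that select the cells, so their calls were set by the design. Chrm4 was the only other call.

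Several excitatory cortical neuron markers were higher in Drd1a cells, and 1 Drd2 array read low in them. Of 10 measured, 6 were called higher and 0 lower (60%, against 6.48% of all features, median 0.49). Slc17a7, the vesicular glutamate transporter of most cortical excitatory neurons, read 1.55, 1.84, 1.88 and 1.76 in the Drd1a arrays and 0.86, 1.03, 0.75 and 0.00 in the Drd2 arrays (1.10 ± 0.19, adjusted p = 0.000361). Neurod6, a factor of excitatory neurons, read 1.56, 2.13, 2.18 and 1.29 against 0.01, 0.79, 1.03 and 0.00 (1.33 ± 0.35, adjusted p = 0.0166). Tbr1, a T-box factor of deep-layer neurons, read 1.71, 2.00, 1.90 and 1.62 against 1.26, 1.07, 0.62 and 0.00 (1.07 ± 0.26, adjusted p = 0.00987). Nrn1, a membrane-anchored growth factor, stood at 1.05 ± 0.32. In all 4 genes Drd2 replicate 4 was the lowest array, and the groups did not overlap. The mean of the list was 0.84, 1.00, 0.99 and 0.83 in the Drd1a arrays and 0.49, 0.45, 0.40 and 0.01 in the Drd2 arrays.

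Without Drd2 replicate 4, 2 excitatory markers were called, as without Drd1a replicate 3, and 3 without Drd1a replicate 2; with centring 4 were, and with quantile normalization 3. The call of Tbr1 was lost without Drd2 replicate 4 and that of Neurod6 without Drd1a replicate 2, Drd1a replicate 3 or Drd2 replicate 4, with differences of 0.83 to 1.25 and 1.18 to 1.52 over the left-out arrays. Nrn1 lost its call without any one of 6 arrays (0.87 to 1.22). Camk2a, a kinase of excitatory neurons found in striatal projection neurons too and named after its values were seen, was not called (-0.13 ± 0.07). In old striatum arrays of Drd1a cells Slc17a7 lay at -1.55 to -0.63, and in those of Drd2 cells at -1.82 to -1.44, below all 8 cortical arrays.

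Markers of cortical layers were called in both directions, with counts that moved with single arrays. Of 14 layer 6 and subplate markers 5 were called higher in Drd1a cells and 2 lower, of 16 layer 5 markers 2 and 1, and of 12 upper-layer markers 1 and 1. The shares called were 50%, 18.8% and 16.7%, in that order, against 6.48% of all features. Without both arrays that stood apart 2 layer 5 markers were lower and 0 upper-layer markers higher. Without Drd2 replicate 2, 3 layer 5 markers were higher and 1 lower. The number of layer 6 and subplate markers called higher was 2 to 6 with single arrays left out. It was 2 without Drd1a replicate 1 or 2 or Drd2 replicate 2, 3 or 4, and 3 without Drd1a replicate 4, with centring or with quantile normalization. Ccn2, a matrix-associated growth regulator that marks the subplate in mouse cortex, read 1.14, 1.18, 0.87 and 1.37 in the Drd1a arrays and 0.12, 0.00, -0.29 and -0.17 in the Drd2 arrays (1.22 ± 0.14, 2.34-fold, adjusted p = 1.13e-06), well apart. Nr4a2, a nuclear receptor of subplate and claustral neurons, stood at 1.04 ± 0.32, and Nxph4, a neurexophilin, at 0.52 ± 0.15. Their calls were lost without any one of 7 and 4 arrays, with differences of 0.87 to 1.15 and 0.41 to 0.64. Nxph3, a related neurexin ligand named after its values were seen, read 1.69, 0.58, 1.28 and 1.40 against 0.12, 0.02, -0.08 and -0.08 (1.24 ± 0.16). Of the layer 5 list, Rbp4, a retinol carrier, read 0.18, 0.04, 0.43 and 0.14 against -1.04, -0.80, -0.97 and -0.75 (1.09 ± 0.17; 1.72 with quantile normalization), and Sulf2, a heparan sulfatase, stood at 0.67 ± 0.15, without a call under quantile normalization (0.37).

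The other genes furthest higher in Drd1a cells belonged to several families. Vegfd, a growth factor for lymphatic and blood vessels, read 0.98, 2.49, 2.16 and 2.12 against 0.74, 0.20, 0.15 and 0.62 (1.51 ± 0.20, adjusted p = 1.23e-05). Prss12, the secreted synaptic protease neurotrypsin, read 1.48, 2.02, 1.31 and 1.23 against 0.23, -0.13, 0.00 and 0.02 (1.48 ± 0.14). Mmgt2, a membrane magnesium transporter gene, was the most variable of them, at 0.00, 1.87, 0.88 and 1.03 against -0.94, -0.62, -0.46 and -0.78 (1.64 ± 0.34, adjusted p = 0.00262). Lack of overlap was a condition for these genes, and Drd1a replicate 1 was the lowest Drd1a array for Vegfd and Mmgt2. Csrp2, a LIM domain protein (1.38 ± 0.15), Rai14, an actin-binding protein (1.37 ± 0.15), Tfap2d, an AP-2 family factor (1.35 ± 0.18), Thrsp, a thyroid hormone-responsive gene (1.31 ± 0.15), and Gng2, a G protein gamma subunit (1.29 ± 0.20), completed the 15 largest, each 2.45-fold or more.

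Among the genes furthest lower in Drd1a cells, hence higher in Drd2 cells, were Nt5e and P2ry1. Nt5e, the ectoenzyme that makes adenosine from AMP outside the cell, read -1.47, -1.67, -1.48 and -1.41 in the Drd1a arrays and 0.00, 0.69, 0.74 and 0.68 in the Drd2 arrays (-2.04 ± 0.18, 4.11-fold, adjusted p = 1.78e-08). P2ry1, a receptor for ADP, read -0.76, -0.71, -1.23 and -0.67 against 0.48, 0.09, 0.84 and 0.39 (-1.29 ± 0.17). Adk, adenosine kinase, which clears adenosine and was named after its values were seen, read -0.50, -0.03, -0.10 and -0.26 against 0.66, 0.83, 0.62 and 0.47 (-0.87 ± 0.12). None of these overlapped between the groups.

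Of 9 cholinergic markers, 1 was called higher in Drd1a cells, Isl1, and 2 lower (33.3% called, against 6.48% of all features). The lower count was 4 with centring, 3 without Drd2 replicate 2, 1 without Drd1a replicate 2 or 3 or Drd2 replicate 1 or 3, and 1 without both arrays that stood apart. Slc5a7, the choline transporter of cholinergic neurons, read -0.49, -0.67, -0.15 and -0.38 against 0.75, 0.29, 1.21 and 1.15 (-1.28 ± 0.19, adjusted p = 4.61e-05). The vesicular acetylcholine transporter Slc18a3 stood at -0.84 ± 0.23, and lost its call without Drd1a replicate 2, Drd1a replicate 3, Drd2 replicate 1 or Drd2 replicate 3 (-1.0 to -0.61). Chat, the enzyme of acetylcholine synthesis, was not called (-0.35 ± 0.15); it read 0.86, -0.05, 0.06 and 0.01 in the Drd2 arrays, high in replicate 1, and -0.20, -0.13, -0.32 and 0.11 in the Drd1a arrays, and was named after its values were seen.

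Slitrk6, a synaptic adhesion protein, read -0.62, -0.68, -0.70 and -0.33 against 0.80, 0.87, 1.04 and 1.83 (-1.71 ± 0.28, 3.28-fold). Fst, follistatin, an antagonist of activin, read -0.70, -0.32, -0.54 and -0.70 against 0.00, 1.49, 0.91 and 1.53 (-1.55 ± 0.24), with Drd2 replicate 1 nearest the Drd1a arrays. Upb1, an enzyme of pyrimidine breakdown, stood at -1.44 ± 0.13, Gsta3, a glutathione transferase, at -1.16 ± 0.17, and Mro at -1.09 ± 0.17. Rxrg, the retinoid X receptor gamma, was called at -1.07 ± 0.18, and Crabp2, a retinoic acid binding protein, at -0.93 ± 0.23. With Rbp4 on the Drd1a side, these were the 2 lower and 1 higher among 14 retinoid signalling genes. The share called there was 21.4%, against 6.48% of all features.

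Receptors and channels differed gene by gene. Of 19 serotonin, opioid and cannabinoid receptors, 2 were called higher and 2 lower. The share called was 21.1% in this list, 21.4% for GABA-A and glycine receptor subunits and 15% for glutamate receptor subunits. Over all features it was 6.48%. Htr2c, a Gq-coupled serotonin receptor, read -0.44, -0.40, -0.85 and -0.17 against 0.35, 0.20, 0.54 and 0.61 (-0.89 ± 0.19). Htr1b, a Gi-coupled one, stood at -0.65 ± 0.18, a call lost without Drd1a replicate 2, Drd1a replicate 3, Drd2 replicate 2 or Drd2 replicate 4 (-0.80 to -0.41), and Htr1a, also Gi-coupled, at 0.61 ± 0.15, a call lost without Drd1a replicate 2 (0.51 to 0.70). Of 14 GABA-A and glycine receptor subunits, Glra2, a glycine receptor subunit, read 0.48, 0.76, 0.21 and 0.19 against 0.01, -0.81, -0.18 and -0.72 (0.83 ± 0.15), and Gabrg3, a GABA-A subunit, -0.81, -0.51, -0.54 and -0.53 against -0.31, 0.19, 0.26 and -0.11 (-0.61 ± 0.11); the only other call was Glra3 (-0.33 ± 0.10), lost without any one of 6 arrays (-0.45 to -0.18). Without both arrays that stood apart 1 was lower. Of 20 glutamate receptor subunits, Gria1, an AMPA receptor subunit, was called lower at -0.31 ± 0.07. Grm8 (0.58 ± 0.16) and Grik4 (0.33 ± 0.10) were called higher, and lost their calls without any one of 5 and 6 arrays (0.47 to 0.73 and 0.29 to 0.42). Of the glutamate receptor subunits 1 was higher and 2 were lower without both arrays that stood apart, and 0 and 1 with quantile normalization.

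Of 52 potassium channel genes, 3 were called higher and 5 lower. The share called was 15.4%, and 10% for the sodium and calcium channel genes below, against 6.48% of all features. Without Drd2 replicate 1 the lower count was 7, and without any one of the other arrays but Drd1a replicate 1 it was 3. With quantile normalization 1 was higher and 7 were lower. Kcnk2, the leak channel TREK-1, read -0.83, -0.99, -1.16 and -0.70 against -0.24, 0.05, 0.09 and 0.21 (-0.95 ± 0.12, adjusted p = 5.5e-06), and Kcnip1, a subunit of A-type channels, 0.96, 1.04, 1.17 and 0.98 against 0.60, 0.00, 0.34 and 0.08 (0.78 ± 0.19). Both separated the groups. Kcnh5 (-0.52 ± 0.12) and Dpp6, a modulator of A-type channels (-0.36 ± 0.08), were lower. Of 20 sodium and calcium channel genes, Cacna2d3, an accessory subunit, was called lower (-0.49 ± 0.12); 3 were lower without Drd1a replicate 1, 5 without Drd2 replicate 1, 4 without both arrays that stood apart and 4 with quantile normalization. Cacna1g, a T-type calcium channel, was called higher (0.33 ± 0.09), a call lost without any one of 6 arrays (0.29 to 0.39). Of 17 EF-hand calcium sensors 4 were called higher and 4 lower (47.1%, against 6.48% of all features). Without Drd1a replicate 2, 2 were lower, and with quantile normalization 2 were higher. Ncald read 1.42, 1.54, 1.68 and 1.43 against 0.80, 0.68, 0.33 and 0.32 (0.99 ± 0.15), whereas its relative Hpca, hippocalcin, read -0.63, -0.80, -0.84 and -0.71 against -0.25, 0.07, 0.02 and 0.07 (-0.72 ± 0.08, adjusted p = 2.15e-07). Necab1, another neuronal calcium-binding protein, was lower (-0.62 ± 0.10).

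RGS proteins, which shorten G protein signals, gave 2 higher and 3 lower of 17 (29.4%, against 6.48% of all features). Without Drd2 replicate 1 or without both arrays that stood apart 5 were lower. Without any one of Drd1a replicate 4 or Drd2 replicates 2 to 4 the lower count was 1. Rgs12 read 0.55, 0.59, 0.56 and 0.55 against 0.11, 0.13, -0.05 and 0.04 (0.50 ± 0.08), a narrow spread in both groups. Rgs9, the striatal member, stood at -0.43 ± 0.12, Rgs8 at -0.39 ± 0.10 and Rgs6 at 0.49 ± 0.15. These 3 lost their calls without any one of 6, 4 and 5 arrays, with differences of -0.50 to -0.38, -0.51 to -0.31 and 0.37 to 0.61.

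Cadherins were called on the Drd2 side, and the balance of axon guidance calls moved with 1 array. Of 49 axon guidance genes, 7 were called lower in Drd1a cells and 1 higher (16.3%, against 6.48% of all features). The median difference was positive (0.07). Without Drd2 replicate 1, 6 were lower and 6 higher, and without both arrays that stood apart 6 and 3. In young cortex 7 were lower and 13 higher. Epha4, an ephrin receptor, read -0.70, -0.57, -0.48 and -0.89 against 0.25, 0.13, 0.02 and 0.02 (-0.76 ± 0.10, adjusted p = 1.1e-05). The secreted semaphorins Sema3e (-0.73 ± 0.14) and Sema3a (-0.63 ± 0.11) were lower, and their relative Sema3c read 0.86, 1.12, 1.43 and 1.21 against 0.55, 0.34, 0.46 and 0.18 (0.77 ± 0.10). Of 40 cadherins and protocadherins, 7 were called lower and 0 higher (17.5%, against 6.48% of all features, median -0.21). It was 6 and 1 without both arrays that stood apart. Without Drd2 replicate 1, 8 were lower and 2 higher. In young cortex 4 were lower and 4 higher (median -0.10). The genes called in old cortex were mainly members of the protocadherin beta cluster, near-identical genes whose probes may share signal. Pcdhb10 read -0.60, -0.89, -0.61 and -0.83 against 0.23, 0.52, 0.07 and 0.78 (-1.13 ± 0.19), and Pcdhb17 (-0.82 ± 0.19), Pcdhb6 (-0.82 ± 0.18) and Pcdhb20 (-0.76 ± 0.16) followed, all without overlap.

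Of 36 synaptic vesicle release genes, 5 were called higher and 2 lower (19.4%, against 6.48% of all features). The higher count was 9 without Drd2 replicate 1 and 3 without Drd1a replicate 4 or with quantile normalization. Stx1a, a syntaxin of the release machinery, read 1.10, 1.25, 1.31 and 1.35 against 0.36, 0.47, 0.36 and 0.13 (0.92 ± 0.13, adjusted p = 2.1e-05), and Syt13, a synaptotagmin, was higher by 0.71 ± 0.12. Doc2b, a calcium sensor for release, was lower (-0.62 ± 0.14). Syt7, a calcium sensor for slower release, stood at 0.45 ± 0.12 and lost its call without Drd1a replicate 4, Drd2 replicate 2 or Drd2 replicate 4 (0.34 to 0.52).

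Glial markers were measured because other cells of the tissue can contribute RNA to such preparations. Of 14 oligodendrocyte and myelin genes, 7 were called lower in Drd1a cells and 0 higher (50%, against 6.48% of all features, median -0.54). The signal was thus higher in the Drd2 preparations. The mean of the list was 0.81, 0.60, 0.41 and 0.09 in the Drd2 arrays and -0.19, -0.05, -0.13 and 0.04 in the Drd1a arrays. It was highest in Drd2 replicate 1, and Drd2 replicate 4 lay near the Drd1a arrays. The count was 1 without Drd2 replicate 1, 3 without Drd2 replicate 2, 4 without Drd1a replicate 1, and 1 without both arrays that stood apart. Ermn, a cytoskeletal protein of oligodendrocytes, read -0.23, 0.57, -0.08 and 0.47 against 1.75, 1.32, 0.79 and 1.00 (-1.03 ± 0.21, adjusted p = 0.00236), and kept its call with each array left out. Trf, transferrin, read -0.15, 0.00, 0.12 and 0.04 against 1.76, 1.47, 0.77 and 0.14 (-1.03 ± 0.26) and lost its call without Drd2 replicate 1 or Drd2 replicate 2 (-1.33 to -0.79). Cnp, a myelin enzyme named after its values were seen, stood at -0.68 ± 0.17 and lost its call without Drd2 replicate 1 (-0.79 to -0.48). Aspa (-0.71 ± 0.18) and Ugt8a (-0.78 ± 0.23) lost theirs without any one of 3 and 5 arrays (-1.01 to -0.52 and -1.03 to -0.58). Mbp, the myelin basic protein gene, was not called (-0.24 ± 0.13) and was named after its values were seen. The part of this signal in the other differences was not tested.

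Of 15 astrocyte markers, 3 were called higher in Drd1a cells (20%, against 6.48% of all features). It was 5 without Drd2 replicate 1 and 1 with quantile normalization. The list mean was 0.41, 0.56, 0.68 and 0.80 in the Drd1a arrays and 0.69, 0.43, 0.16 and 0.03 in the Drd2 arrays, and the groups overlapped. Slc1a3, a glutamate transporter of astrocytes, read 0.61, 1.35, 1.43 and 1.55 against 0.30, 0.40, 0.35 and 0.04 (0.96 ± 0.17). S100b, a calcium-binding protein, stood at 0.72 ± 0.17, without a call under quantile normalization (0.32), and Mlc1 at 0.57 ± 0.17, a call lost without Drd1a replicate 3, Drd1a replicate 4, Drd2 replicate 3 or Drd2 replicate 4 (0.43 to 0.73). Gfap, the intermediate filament of reactive astrocytes, was not called and was highest in Drd2 replicate 1: it read 1.64, 0.66, 0.52 and -0.25 in the Drd2 arrays and 0.57, 0.74, 1.21 and 0.57 in the Drd1a arrays (0.13 ± 0.23); it was named after its values were seen. The part of astrocyte RNA in the other differences was not tested.

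No member was called among 8 oligodendrocyte precursor, 16 microglia and macrophage, 12 endothelial, 16 mural cell, fibroblast and meningeal, and 7 choroid plexus and ependymal markers. The members with the largest differences of these lists were Olig1 (0.28 ± 0.14), Ctss (-0.35 ± 0.27), Itm2a (0.21 ± 0.17), Kcnj8 (0.33 ± 0.16) and Ttr (-0.56 ± 0.75). No call was made either among 36 cytosolic ribosomal protein genes (largest Rps15a, 0.16 ± 0.07) or 2 adrenergic receptors (largest Adra2c, 0.29 ± 0.11).

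**Figure D4:**
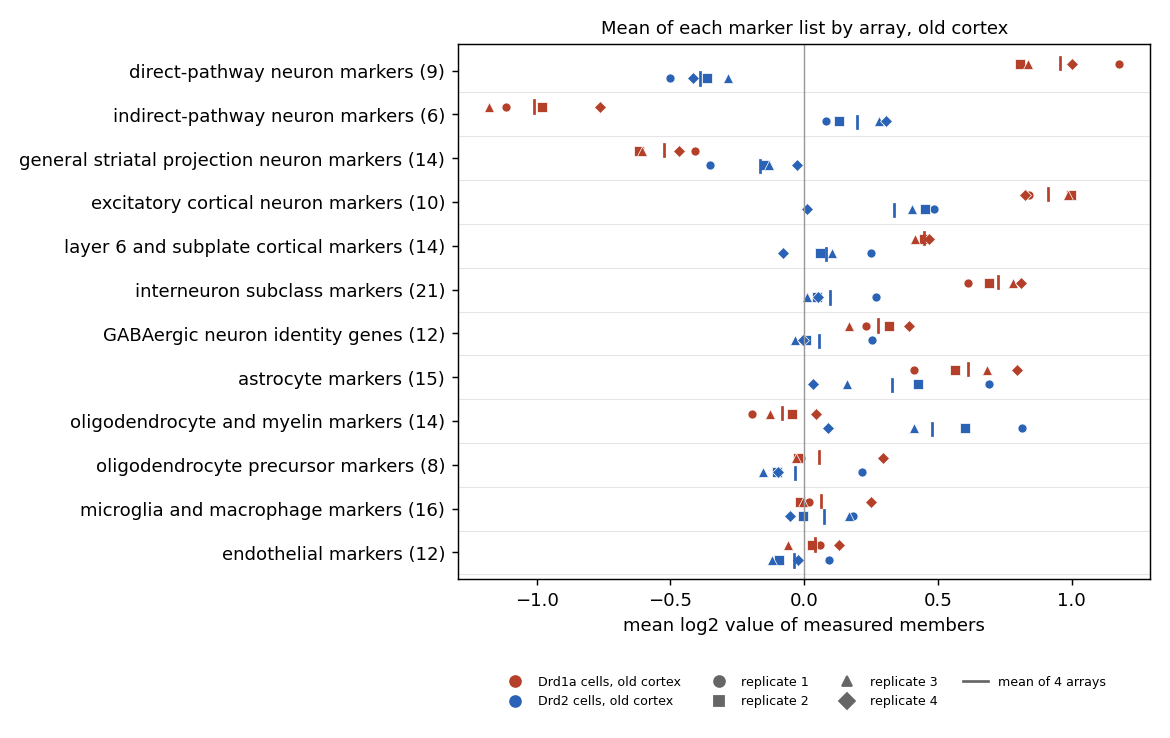
Mean log2 value of 12 marker lists in each old cortex array (red, Drd1a cells; blue, Drd2 cells; symbols, replicates; ticks, means of 4 arrays; number of measured members in parentheses). Direct- and indirect-pathway lists separate the groups in opposite directions, the oligodendrocyte list spreads from 0.09 to 0.81 in the Drd2 arrays, and astrocyte, precursor, microglia and endothelial lists overlap.

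Each of 5 housekeeping and stress-related lists held 1 or 2 calls. The share of members called was 1.69% for oxidative phosphorylation and 4.0% for lysosomal genes, against 6.48% of all features. It was 11.1% for cholesterol synthesis, 11.1% for MHC class I and interferon-induced and 8.33% for activity-induced early genes. With 1 or 2 calls a list, the distance of these shares from that of all features is not a result about the lists. Of 59 oxidative phosphorylation subunits 1 was called, Cox6a2 (0.62 ± 0.18), a muscle-type subunit also made in fast-spiking interneurons, whose call was lost without any one of 5 arrays (0.52 to 0.77). Of 25 lysosomal genes 1 was called, Ctsz, a cathepsin (-0.39 ± 0.11), whose call was lost without Drd1a replicate 1, Drd2 replicate 2 or Drd2 replicate 4 (-0.46 to -0.34). Of 18 cholesterol synthesis genes 2 were called higher, with none under centring or quantile normalization, 5 without both arrays that stood apart, and 0 to 4 with single arrays left out. They were Fdps (0.41 ± 0.12) and Insig1 (0.36 ± 0.11), which lost their calls without any one of 4 and 5 arrays (0.31 to 0.49 and 0.28 to 0.41). The MHC class I and interferon-induced list of 18 genes also holds the innate alarm signalling genes Irak3, Il33 and Casp1. In that list 2 were called higher, 1 without both arrays that stood apart. Ifi27 stood at 0.72 ± 0.16, and Irak3 at 0.40 ± 0.11 with a call lost without any one of 5 arrays (0.32 to 0.48). Of 24 activity-induced early genes, 1 was called higher, Nr4a2 (0 without both arrays that stood apart), and 1 lower, Homer1 (-0.32 ± 0.10), a call lost without any one of 6 arrays (-0.40 to -0.25).

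The question of whether the cell type difference depends on age was addressed with the same comparison in cortex at 6 weeks, which shares no arrays with that at 2 years. At 6 weeks 1956 features were called (12.0%), 1090 higher in Drd1a cells (6.67%) and 866 lower (5.30%). Of these, 733 were called at 2 years too and in the same direction, 69.2% of the calls in old and 37.5% of those in young cortex. Called in opposite directions was 1 feature, Drc3, a gene of cilia and flagella. The difference between the ages was itself called for 17 features (0.104%), 11 positive (0.0673%) and 6 negative (0.0367%), and 1266 features had an unadjusted p under 0.05. This count rested on single arrays. It was 0 without old Drd1a replicate 4 and 0 with only the 16 cortex arrays in the fit, and from 1 (without young Drd2 replicate 2) to 34 (without old Drd2 replicate 4) when another array was left out. With arrays centred on their medians 2 were positive and 4 negative, and with quantile normalization 10 and 19.

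Drd1 had the largest negative interaction of those called (-1.46 ± 0.25, adjusted p = 0.0193), with no call under quantile normalization (-1.27, adjusted p = 0.236). Its difference was 3.47 ± 0.18 at 6 weeks, when the Drd2 arrays lay at -2.93 to -2.87 and the Drd1a arrays at 0.07 to 0.78. At 2 years the Drd2 arrays lay at -1.18 ± 0.50 (SD) and the Drd1a arrays at 0.83 ± 0.24 (SD). The groups lay closer at 2 years, where the Drd2 arrays read higher than at 6 weeks. For Drd2 the difference was -4.76 ± 0.17 at 6 weeks, and the interaction was not called (0.72 ± 0.24, adjusted p = 0.372).

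Rasgrp2, lower in Drd1a cells at both ages, differed less at 2 years (-0.56 ± 0.12 against -1.47 ± 0.12; interaction 0.92 ± 0.17, adjusted p = 0.0284). Psmc3ip, a recombination cofactor gene, stood at -0.81 ± 0.19 at 6 weeks and 0.52 ± 0.19 at 2 years, where Drd1a replicate 1 read low (-0.55, 0.54, 0.52 and 0.47; interaction 1.32 ± 0.27, adjusted p = 0.0468). Mgp, a matrix protein that limits calcification, was higher in Drd1a cells at both ages, by 1.48 ± 0.14 at 6 weeks and 0.52 ± 0.14 at 2 years, where the call was lost without Drd1a replicate 1, Drd1a replicate 3, Drd2 replicate 2 or Drd2 replicate 3 (0.43 to 0.59). Its interaction was -0.96 ± 0.20 (adjusted p = 0.0468). Drc3 turned from 0.48 ± 0.11 to -0.45 ± 0.11 (interaction -0.92 ± 0.16, adjusted p = 0.0193), and its old cortex call was lost without Drd1a replicate 1 or Drd2 replicate 1 (-0.50 to -0.32). Sema3a was lower in Drd1a cells at 2 years (-0.63 ± 0.11) and stood at 0.10 ± 0.11 at 6 weeks (interaction -0.73 ± 0.15, adjusted p = 0.0485). The remaining named interactions were those of Pamr1 (-0.75 ± 0.15), Taf15, an RNA-binding protein (-0.51 ± 0.10), St8sia3, a brain sialyltransferase (0.77 ± 0.15), Peli2, a ubiquitin ligase (0.74 ± 0.14), Zfp180 (0.66 ± 0.14) and Rom1 (0.64 ± 0.10). None of these calls was made without old Drd1a replicate 4. With quantile normalization Psmc3ip, Peli2, Zfp180 and Mgp lost theirs as well as Drd1, and with centring only Rom1, Drc3, Drd1, Pamr1 and Taf15 among the 12 named were called.

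Several of the peptide and marker genes described above differed at both ages. Of the GABAergic identity genes 3 were called higher and 3 lower in young cortex (median -0.04). Of the interneuron subclass markers 8 were called higher and 3 lower there (median 0.23). Vip differed by 3.96 ± 0.13 at 6 weeks (interaction -0.58 ± 0.18, adjusted p = 0.268), Tac2 by 2.34 ± 0.16, Npy by 1.92 ± 0.18, Eya1 by 2.94 ± 0.13 and Foxp1 by -1.12 ± 0.09. Sst stood at 0.60 ± 0.27 at 6 weeks and was not called there (interaction 0.52 ± 0.38, adjusted p = 0.79). Of the general striatal markers 12 were called lower and 1 higher in young cortex (median -0.88), and 1 interaction in that list, Rasgrp2, was called. Of the myelin list 5 were called lower at 6 weeks, with none of the interactions called.

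Most neurons of striatum are projection neurons. The same comparison there at 2 years, which shares no arrays with that in cortex, gave 459 called features (2.81%), 266 higher in Drd1a cells (1.63%) and 193 lower (1.18%). Of the calls in old cortex 143 were also called in old striatum in the same direction, 13.5% of the former and 31.2% of the latter, and 9 were called in the opposite direction. The difference between the regions was called for 229 features (1.40%), 138 positive (0.844%) and 91 negative (0.557%). With quantile normalization 79 were positive and 125 negative, and with centring 119 and 111. With single arrays left out this count ran from 139 (without old cortex Drd1a replicate 2) to 383 (without old striatum Drd1a replicate 2).

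Vip showed the largest region interaction (3.23 ± 0.18, adjusted p = 9.57e-13). In old striatum it lay at -0.46 to -0.07 in Drd1a and -0.72 to -0.27 in Drd2 arrays, a difference of 0.15 ± 0.13 that was not called. All of these striatal values lay below those of the old cortex Drd2 arrays. Tac2 likewise differed in cortex and stood at 0.03 ± 0.16 in striatum (interaction 1.68 ± 0.23, adjusted p = 8.14e-05). Another set of positive interactions came with lower values in the Drd1a cells of striatum. Chrm3, the M3 muscarinic receptor, stood at 0.12 ± 0.37 in cortex and -1.93 ± 0.37 in striatum (interaction 2.05 ± 0.52, adjusted p = 0.0436). Nts, the neurotensin precursor, stood at 0.03 ± 0.27 and -1.55 ± 0.27 (1.58 ± 0.39), Chrna4, a nicotinic receptor subunit, at 0.31 ± 0.16 and -1.21 ± 0.16 (1.52 ± 0.23), and Cpne4, a copine, at 0.59 ± 0.19 and -1.07 ± 0.19 (1.66 ± 0.27).

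Among negative interactions, Ebf1 differed by 2.02 ± 0.17 in striatum and 0.34 ± 0.17 in cortex (interaction -1.68 ± 0.24, adjusted p = 0.000246). Its old striatum Drd1a arrays lay at 2.23 to 2.54, above all old cortex arrays. Eya1 differed by 4.17 ± 0.13 in striatum, more than in cortex (-1.12 ± 0.19, adjusted p = 0.00149). Strip2 (-0.99 ± 0.17) and Efcab1 (-1.05 ± 0.27) were higher in Drd1a cells of striatum and not called in cortex, whereas Pcdhb10 (-1.04 ± 0.27) was lower in cortex and stood at -0.09 ± 0.19 in striatum. Ddit4l, an inhibitor of mTOR signalling, had an interaction of -0.95 ± 0.24, and its cortical call (-0.57 ± 0.17) was lost without any one of 5 arrays (-0.73 to -0.42). Of the interactions given here and above, those of Chrm3, Nts, Efcab1 and Pcdhb10 were not called with centring, with quantile normalization, or without any one of 9 to 11 of the 16 arrays. That of Ddit4l was lost with centring and without any one of 13, and that of Eya1 with quantile normalization (-0.93, adjusted p = 0.0671). The Cpne4 interaction was 0.95 with quantile normalization, still called. Foxp1 and Pde10a, lower in Drd1a cells of cortex, stood at -0.31 ± 0.09 and -0.04 ± 0.11 in striatum, with interactions of -0.55 ± 0.12 (adjusted p = 0.0165) and -0.70 ± 0.16 (adjusted p = 0.0217).

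Several genes next to the receptors and on the Drd2 side were called in both regions. Drd1 differed by 2.07 ± 0.18 in old striatum (interaction -0.07 ± 0.25), Sfxn1 by 1.70 ± 0.16 (-0.08 ± 0.22), Nt5e by -2.20 ± 0.18 (0.16 ± 0.26), Fig4 by -1.39 ± 0.11 (0.18 ± 0.16) and P2ry1 by -1.53 ± 0.17 (0.24 ± 0.24), and none of these interactions was called. Ankk1 (-2.49 ± 0.11 in striatum) and Adk (-1.83 ± 0.12) differed more in striatum, with interactions of 0.80 ± 0.16 (adjusted p = 0.00782) and 0.96 ± 0.17 (adjusted p = 0.00199); that of Ankk1 was not called with quantile normalization (0.53, adjusted p = 0.39). Of the 15 genes furthest higher in Drd1a cells of cortex, 4 were called in striatum (Eya1, Drd1, Sfxn1 and Npy), and of the 15 furthest lower, 13, with Pcdhb10 and Rxrg the exceptions.

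**Figure D5:**
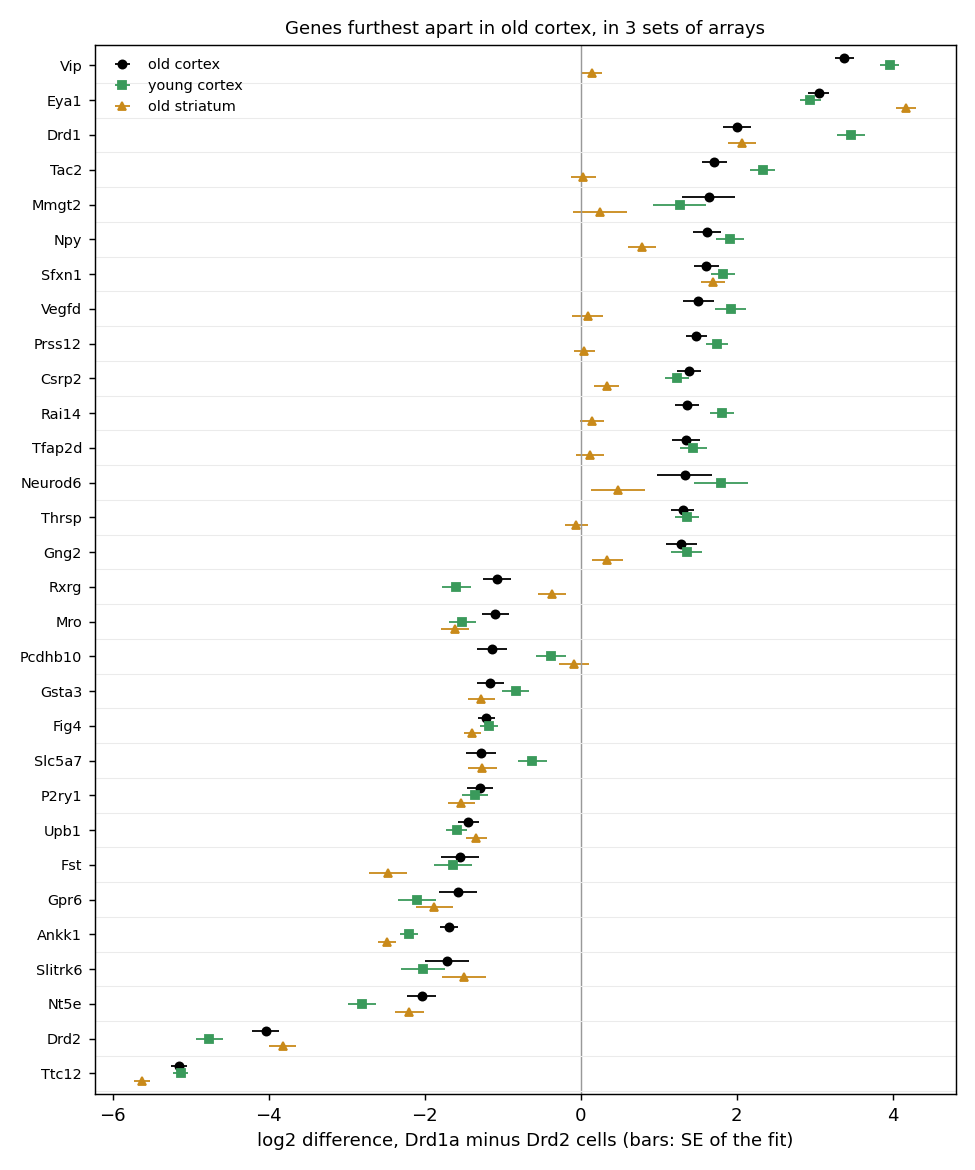
Log2 difference, Drd1a minus Drd2 cells, of the 15 genes furthest higher and 15 furthest lower in old cortex (black), with the same difference in young cortex (green) and old striatum (orange). Bars are standard errors of the fit. Vip, Tac2, Vegfd, Prss12 and Thrsp lie near 0 in striatum, and Drd2, Ttc12, Nt5e and Fig4 lie on the same side in all 3 sets.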

How the data were processed

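The authors deposited 1 value per gene feature and array as log2, made with RMA and genome build mm8 per the submitters' processing notes; versions were not stated there. Across the deposited table the median over 31 arrays was 0 for 16341 of 16345 features, a centring of log2 values by the authors that leaves no absolute level and no signal over background, so no filter on dim features could be set. In 3 deposited columns (unit recorded as other) 1 cell each was malformed, and 1 cell was empty: these 4 cells were set to missing. Of 16345 features, 14793 had 1 gene symbol in the platform annotation, 814 several and 738 none, and only the first kind was named.

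A linear model with 1 mean per group was fitted to all 31 arrays with limma 3.58.1 (R 4.3.3), giving 23 residual degrees of freedom. Its moderated p-values were Benjamini-Hochberg adjusted over all features, for each of 5 contrasts. In data simulated for this comparison on 16345 features, 67 features were changed 1.2-fold, 67 changed 1.5-fold and 66 changed 2-fold. The fit called 13.4%, 85.1% and 98.5% of these, in that order, and 3 unchanged features. Estimated weights of the deposited arrays ran from 0.173 (old striatum Drd1a replicate 2) to 2.23 (old cortex Drd1a replicate 2). The simulated percentages are for the simulated data alone, and whether they hold for arrays of such unequal weight was not tested. Arrays were grouped by their titles. The genes named are Drd1, Drd2, 4 measured neighbours on either side of each, the 15 largest called differences each way without overlap, up to 4 called members of each list (the largest member where none was called), and the 6 largest called interactions each way. Others are said to be named after their values were seen. The members, gene lists and tests were chosen with earlier results of these data known. The alternatives were other scalings, array weights, robust moderation, a residual component, a replicate block, fewer arrays and other fold thresholds. The other 23 arrays entered only the common estimate of spread or the comparisons with young cortex and old striatum.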

Additional observations from a re-analysis of the deposited data

Results flagged for a closer look

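Of 334 sets of 4 arrays tested over the named genes of old cortex, 23 held 1 array whose gap to the nearest other exceeded Dixon's 95% critical value as a share of the range, and chance gives such a gap in about 1 in 20 sets. Drd2 replicate 1 was far above the other Drd2 arrays in Cacna1g (0.24, others -0.03 to 0.00), Chat (0.86, others -0.05 to 0.06), Dlx1 (0.15, others -0.14 to -0.11), Drc3 (0.79, others 0.26 to 0.32), Grm8 (-0.0422, others -0.20 to -0.18) and Plet1 (0.21, others -0.20 to -0.16). Drd2 replicate 1 was far below the other Drd2 arrays in Cacna2d3 (-0.54, others -0.27 to -0.23), Hpca (-0.25, others 0.02 to 0.07) and Nt5e (0.00, others 0.68 to 0.74). Drd1a replicate 1 was far above the other Drd1a arrays in Drd1 (1.19, others 0.67 to 0.74) and Rasgrp2 (-0.78, others -0.99 to -0.97). Drd1a replicate 1 was far below the other Drd1a arrays in Ctsz (-0.61, others -0.40 to -0.37), Gabrg3 (-0.81, others -0.54 to -0.51), Kit (0.63, others 1.42 to 1.53) and Psmc3ip (-0.55, others 0.47 to 0.54). Drd1a replicate 4 was far above the other Drd1a arrays in Olig1 (0.57, others -0.01 to 0.08), Pnoc (0.69, others 0.21 to 0.28) and Syt7 (0.59, others 0.09 to 0.16). Drd1a replicate 4 was far below the other Drd1a arrays in Pcdhb6 (-0.34, others -0.16 to -0.14) and Thoc3 (-0.48, others 0.00 to 0.08). Drd2 replicate 3 stood apart in Eya1 (-0.56, others -0.05 to 0.00). Drd2 replicate 3 stood apart in Gsta3 (1.59, others 0.90 to 0.97). Drd2 replicate 4 stood apart in Slc32a1 (0.0455, others -0.17 to -0.15). In all, 9 of the 23 values were of Drd2 replicate 1, 6 of Drd1a replicate 1, 5 of Drd1a replicate 4, 2 of Drd2 replicate 3 and 1 of Drd2 replicate 4.

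The difference between Drd1a and Drd2 cells itself differed between the ages, by limma's interaction, old minus young on the log2 scale, in 12 named genes. It was more positive at 2 years in Peli2 (0.74), Psmc3ip (1.32), Rasgrp2 (0.92), Rom1 (0.64), St8sia3 (0.77) and Zfp180 (0.66). It was more negative at 2 years in Drc3 (-0.92), Drd1 (-1.46), Mgp (-0.96), Pamr1 (-0.75), Sema3a (-0.73) and Taf15 (-0.51). Without old Drd1a replicate 4 none of these was called, as was the case for every feature.

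Between old cortex and old striatum the difference itself differed in 39 named genes, by the same test, cortex minus striatum. It was more positive in cortex in Adarb2 (0.63), Adk (0.96), Ankk1 (0.80), Cck (0.93), Ccn2 (1.15), Chrm3 (2.05), Chrna4 (1.52), Cpne4 (1.66), Csrp2 (1.05), Glra2 (0.96), Htr3a (0.89), Kit (1.02), Ncald (1.04), Nts (1.58), Nxph3 (1.29), Prss12 (1.43), Ptprm (0.82), Rai14 (1.23), Rgs12 (0.64), S100b (0.95), Sema3c (0.73), Stx1a (0.82), Sulf2 (0.92), Syt13 (0.87), Tac2 (1.68), Tfap2d (1.24), Thrsp (1.36), Vegfd (1.42) and Vip (3.23). It was more negative in cortex in Ddit4l (-0.95), Ebf1 (-1.68), Efcab1 (-1.05), Eya1 (-1.12), Foxp1 (-0.55), Gad2 (-0.44), Pcdhb10 (-1.04), Pde10a (-0.70), Pde1b (-0.51) and Strip2 (-0.99). Quantile normalization lost 18 of the 39 calls, centring 6, and 12 were lost without at least 1 array. Positive calls lost with quantile normalization were Adarb2, Ankk1, Chrm3, Csrp2, Glra2, Kit, Ncald, Nts, Rai14, S100b, Sema3c, Stx1a, Sulf2, Tfap2d and Vegfd. Negative ones were Efcab1, Eya1 and Pcdhb10. Gad2 and S100b lost their calls without any one of 12 and 10 of the 16 arrays.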

How the results depend on the processing

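The old cortex count of 1059 calls lay between 761 and 1320 with single arrays left out, and 523 of the calls (49.4%) were made with every array left out in turn. It was 844 with quantile normalization, 1016 with centred arrays, 1569 with array weights, 1624 with the first residual component (30.1% of the residual variance) as a covariate, 618 with only the 8 arrays in the fit and 312 at a 1.5-fold threshold. Without both arrays that stood apart it was 905, of which 736 were among the 1059, an alternative chosen after seeing the data.

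The age interaction count of 17 was 6 with centred arrays, 29 with quantile normalization, 31 with array weights, 11 with robust moderation, 111 with the residual component, 0 with only the 16 arrays compared, and 0 to 34 with single arrays left out. The region interaction count of 229 was 2487 with array weights, 1186 with the residual component, 145 with only the 16 arrays compared, 152 at 1.5-fold, and 139 to 383 with single arrays left out. The causes of these changes were not tested, beyond the fewer arrays or higher threshold that some alternatives use.

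The labels do not say whether a replicate number marks a shared mouse or batch, and arrays were treated as unpaired. Deviations of same-numbered Drd1a and Drd2 arrays correlated at -0.161, 0.129, 0.122 and -0.13 in old cortex. In young cortex they correlated at 0.182, 0.014, 0.0566 and 0.166. Between old cortex and old striatum the values were 0.0869, -0.176, 0.219 and -0.198 for Drd1a cells. For Drd2 cells they were 0.131, 0.032, -0.0651 and 0.169. Such correlations cannot show whether arrays were paired. With the replicate block the counts were 992, 15 and 190.

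Of 167 named genes, none that was called as reported or under an alternative changed direction in that alternative. Sign changes of genes called in neither were not counted. Of the 127 called, quantile normalization lost 22 calls, centring 9, the replicate block 5, the 8-array fit 28, omission of both arrays 17, and single omitted arrays 8 to 25, and 92 kept their calls with each array left out. Of 12 named age interactions centring lost 7 calls and quantile normalization 5, and of 39 named region interactions 6 and 18; 12 of each lost their call without at least 1 array, and none reversed. The number of arrays limits the precision, and signal over background is unknown.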
